A study of Homo sapiens with 38 samples.

Results

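HOX cluster genes encode the homeodomain transcription factors that lie in 4 clusters of the human genome, HOXA, HOXB, HOXC and HOXD. Members were taken by symbol (HOX, a cluster letter and a number, with antisense transcripts left out) from 15 tables of RNA sequencing in breast cancer cell lines. At least 1 table listed 32 of the 39 HOX genes in RefSeq, out of 24463 symbols in all: 10 of 11 in HOXA, 9 of 10 in HOXB, 9 of 9 in HOXC and 4 of 9 in HOXD. Of these, 15 were listed in every table. HOXA2, HOXB1, HOXD1, HOXD3, HOXD8, HOXD10 and HOXD11 were listed in none.

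The series holds 38 samples in 19 groups of 2 from 3 established lines: T47D, a luminal line that expresses the estrogen receptor, T47D-TR, and BT-549, a triple-negative line with mesenchymal features. All lines were grown in RPMI1640 with serum and insulin. For 48 h each line received 2.5 uM of MS177 (an EZH2 degrader), of MS177-N1 or MS177-N2 (its negative controls) or of C24 (an inhibitor of EZH2), or 0.125% DMSO alone. For 30 h T47D-TR also received 2.5 uM of MS8815 (another EZH2 degrader), MS8815-N (its negative control) or EPZ-6438 (an EZH2 inhibitor), or 0.05% DMSO. Whether replicates came from separate cultures is not given in the labels, and p-values then measure only the spread between these libraries, which may be technical. The compounds of a line and time share the same 2 DMSO libraries.

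As background, HOX genes are arranged along each cluster in the order in which they act along the body axis: low numbers act towards the head and high numbers towards the tail. Their proteins bind DNA with PBX and MEIS cofactors. The clusters are classic targets of polycomb repressive complex 2, in which EZH2 methylates histone H3 at lysine 27 and keeps members silent in cells that do not use them, while MLL complexes keep active members on. Several HOX genes, among them HOXA5, HOXB7, HOXB9 and HOXB13, have been studied in breast cancer cells.

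In hg38 the HOXA cluster lies on chromosome 7 and ends at 27200106, and HOXB spans chromosome 17 from 48528526 to 48729178, HOXC chromosome 12 from 53938765 to 54056030 and HOXD chromosome 2 from 176092891 to 176190907, first to last gene in the GENCODE annotation. HOX promoters are rich in CG pairs, the feature by which polycomb targets are commonly recognised, and 3 are printed because their genes moved in the comparisons described further on. The RefSeq promoter table (GRCh38.p14) matched 13 of the 32 listed HOX genes and 20 of all 39, with 27 entries. Each sequence is the 250 bases before the start that RefSeq gives for the gene, in its own strand, with CG pairs in capitals: HOXA9 at chr7:27165538-27165787 on the minus strand, HOXA13 at chr7:27200092-27200341 on the minus strand, and HOXC4 at chr12:54016638-54016887 on the plus strand, a window also listed for HOXC5. GENCODE has a longer model of HOXA9 and the HOXA9 window lies inside it. The GENCODE model of HOXA13 overlaps the last bases of its window as printed, next to the start.
HOXA9: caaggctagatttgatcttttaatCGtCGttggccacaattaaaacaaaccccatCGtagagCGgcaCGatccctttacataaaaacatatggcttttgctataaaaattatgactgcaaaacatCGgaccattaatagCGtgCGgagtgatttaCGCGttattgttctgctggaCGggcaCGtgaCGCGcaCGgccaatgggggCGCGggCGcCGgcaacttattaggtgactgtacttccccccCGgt
HOXA13: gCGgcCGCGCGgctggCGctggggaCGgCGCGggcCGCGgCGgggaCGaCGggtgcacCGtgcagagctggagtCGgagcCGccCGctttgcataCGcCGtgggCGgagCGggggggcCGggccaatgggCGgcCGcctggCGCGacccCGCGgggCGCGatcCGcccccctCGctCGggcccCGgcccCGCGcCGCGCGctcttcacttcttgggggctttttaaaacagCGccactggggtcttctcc
HOXC4: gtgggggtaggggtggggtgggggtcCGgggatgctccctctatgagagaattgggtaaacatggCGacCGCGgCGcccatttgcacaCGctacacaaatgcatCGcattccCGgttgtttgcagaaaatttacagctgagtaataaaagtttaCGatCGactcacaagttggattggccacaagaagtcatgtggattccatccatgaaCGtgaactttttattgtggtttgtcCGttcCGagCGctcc
These windows hold 20, 40 and 14 CG pairs. The median over the 27 HOX entries was 19, from 0 to 40, and over all 35116 promoters of the same length it was 11. On either strand, the letters TTTATNG, a form bound by HOX proteins of high number, occurred in 7 of the 27 HOX entries, HOXA9 and HOXC4 included, and in 8.93% of all promoters. The window shared by HOXC4 and HOXC5 is counted for each, and HOXA3 has several entries, so the entries are not independent promoters. A second form, TGATTNAT, bound by HOX with PBX, occurred in 2 of 27, and in 2.48% of all promoters. The 2 forms were searched separately, and places where they overlap were counted for each. A match is a description of letters only.

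Levels are normalized counts recovered from the deposited log2 values, and, for levels in DMSO and sums of markers, CPM, which scale them to the total over the listed genes (counts per 1 M). T47D and BT-549 libraries held 32.1 to 49.9 M reads over listed genes, while for T47D-TR no depth could be had. Some libraries stood apart from their replicates. The MS177 pair in T47D correlated across genes at 0.917, against 0.989 for the DMSO pair. At 30 h the pairs of MS8815-N, MS8815 and EPZ-6438 correlated at 0.656, 0.911 and 0.928, and 44.3% of genes were at 0 in the second MS8815-N library, against 0.594% to 1.02% in the other libraries of that table. In T47D, 1 of the 2 columns given for MS177-N1 held the counts of MS177-N2 replicate 2, so MS177-N1 is 1 library there. In DMSO, 11 or 12 of 12 luminal markers reached 1 CPM in the T47D and T47D-TR groups and 6 in BT-549, where 11 of 13 basal and mesenchymal markers did. Immune and endothelial markers at 1 CPM numbered 0 or 1 of 8 in every DMSO group. EZH2 transcript, the gene of the targeted protein, was not lowered by MS177: it went from 1452 to 1719 normalized counts in T47D (limma adjusted p = 0.643), from 247 to 359 in T47D-TR (0.0213) and from 2975 to 3706 in BT-549 (0.0922). With MS8815 it went from 167 to 121 (0.362).

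The first question was which clusters are on in untreated cells, where a gene was called on if both DMSO libraries held at least 1 CPM. In all 3 lines HOXB and HOXC were on and HOXD was off. HOXA was on for 3 members in BT-549, for 1 in T47D-TR at 48 h, and for none in T47D or in T47D-TR at 30 h. T47D had 13 members on (5 HOXB, 8 HOXC), T47D-TR 15 at 48 h (1 HOXA, 6 HOXB, 8 HOXC) and 12 at 30 h (6 HOXB, 6 HOXC), and BT-549 18 (3 HOXA, 8 HOXB, 7 HOXC). The members on in T47D were HOXB2, HOXB3, HOXB5, HOXB6 and HOXB7, and every HOXC gene but HOXC5. T47D-TR at 48 h had the same ones and HOXA5 and HOXB9. The tables of the lines were normalized separately, so levels are set side by side without a test. In T47D-TR the level of the same DMSO libraries also varied with the table for some genes, and 1 table is given. At 30 h the mean lay from 112 to 143 CPM over tables for HOXC10 and from 51.6 to 63.6 for HOXB2, but from 75.5 to 76.1 for HOXC13.

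HOXC10, a posterior HOXC gene, was the highest HOXC member in every line. Its 2 DMSO libraries held 133 and 137 CPM in T47D, 158 and 181 in T47D-TR at 48 h, 147 and 140 in T47D-TR at 30 h, and 45.3 and 40.5 in BT-549. Per kb of transcript it stood at 69.8, 87.7, 73.9 and 22.2 CPM. BT-549 was thus the lowest of the groups for this gene, on separately normalized tables. HOXC13, which is best known from hair and nail, held 47.1 and 41.2 CPM in T47D, 114 and 110 in T47D-TR at 48 h and 18.6 and 18.7 in BT-549.

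Within HOXB the leading member differed. HOXB2, an anterior gene known from the hindbrain, led in T47D with 60.7 and 64.8 CPM and in T47D-TR with 89.6 and 78.5 at 48 h and 61.04 and 63.9 at 30 h. In BT-549 it held 58.6 and 55.2 CPM, below HOXB6 with 87.3 and 79.2. Per kb, HOXB6 stood at 42.5 CPM and HOXB2 at 36.4 there. In T47D HOXB6 held 3.86 and 3.79 CPM.

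In BT-549 the central genes HOXB4 and HOXB8 and the posterior gene HOXB13 were also on, all of them off in T47D. The posterior gene HOXB9 was off in BT-549, with 0.74 and 0.79 CPM, and on in T47D-TR at 48 h and 30 h. The central genes HOXB5, HOXB6 and HOXB7 were on in every line. HOXB4, known for its role in blood stem cells, held 37.8 and 38.2 CPM in BT-549 and 0.87 and 0.63 in T47D. HOXB8 held 10.5 and 10.98 CPM against 0.35 and 0.09. HOXB13, the most posterior HOXB gene and a partner of the androgen receptor in prostate, held 14.2 and 13.2 CPM against 0.17 and 0.15, and was not listed for T47D-TR. For these 3 genes the libraries of T47D and BT-549 lay far apart. HOXC4 went the other way, with 0.85 and 1.30 CPM in BT-549, 16.0 and 13.3 in T47D and 12.97 and 17.4 in T47D-TR.

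HOXA9, a gene that MLL keeps on in leukemia, was listed for BT-549 only, with 29.3 and 30.1 CPM. HOXA10 with 3.39 and 2.80 and HOXA11 with 1.56 and 1.19 were the other HOXA genes on in BT-549. HOXA5, which led HOXA in T47D and in T47D-TR at 48 h, held 0.96 and 0.98 CPM in T47D, just below 1 CPM, and 1.51 and 1.16 in T47D-TR, just above. At 30 h HOXA11 led with 1.39 and 0.91 CPM. HOXA13 was just below 1 CPM in BT-549, with 1.04 and 0.88. Within HOXD, HOXD13, a gene of the distal limb, held 0.36 and 0.65 CPM and HOXD4 0.27 and 0.45 in BT-549, and HOXD12 held 0.45 and 0.27 in T47D.

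As a share of the summed HOX level per kb, HOXC made up 68.3% in T47D, 70.9% in T47D-TR at 48 h and 72.8% at 30 h, but 32.1% in BT-549. HOXB made up 30.6%, 28.1% and 26.8% in the first 3 groups and 60.5% in BT-549. HOXA made up 0.879%, 0.973%, 0.445% and 7.22%. Over all listed genes 75.3% to 79.2% were on by the same rule.

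**Figure D1:**
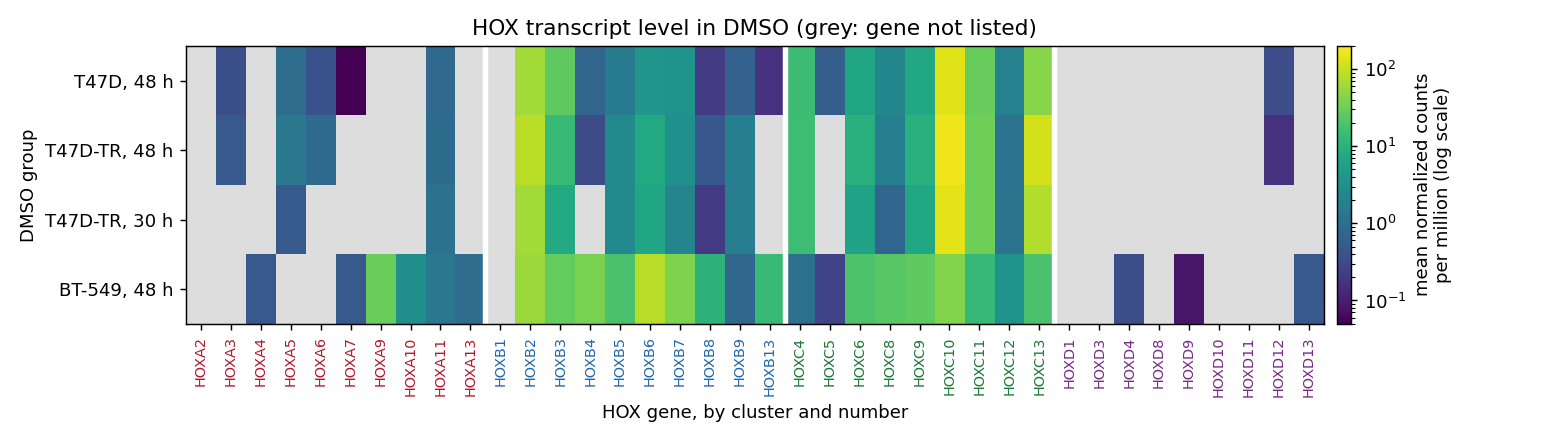
Mean CPM (colour, log scale) of HOX genes (horizontal axis, by cluster and number, 1 HOXA gene not shown) in the 4 DMSO groups (vertical axis), with grey where the gene is not listed. HOXC10 and HOXB2 are high in every group, HOXB4, HOXB8 and HOXB13 stand out in BT-549, and no HOXD gene reaches 1 CPM.

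The next question was what MS177 changes. In BT-549 MS177 lowered many HOX genes of the HOXB and HOXC clusters: 14 of 26 tested members fell and 2 rose at a limma adjusted p under 0.05, adjusted over all genes. That is 53.8% lower and 7.69% higher, where 12.6% and 11.5% of all 16336 tested genes did so (24% in either direction). HOXA13 and HOXA4 passed the filter on low counts only through the DMSO libraries, and without them 13 of 24 fell. The falls comprised 6 of 8 HOXC, 6 of 9 HOXB and 2 of 7 HOXA members, with medians of -0.97, -0.79 and -0.30 on the log2 scale. Summed over the HOXC cluster, the DMSO libraries held 5920 and 5246 normalized counts and the MS177 libraries 2618 and 2692, 2.10-fold lower. The HOXB sum was 1.37-fold lower and the HOXA sum 1.39-fold lower. The HOXA sum was mostly HOXA9, which held a mean of 29.7 of its 36.7 CPM in DMSO. In bulk RNA, fewer cells of a type and less RNA per cell cannot be told apart.

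HOXA13, a gene of distal limb and urogenital development whose promoter is printed above, was low in the MS177 libraries of BT-549. Its DMSO libraries held 40.1 and 32.2 normalized counts and its MS177 libraries 6.54 and 6.78. Both treated libraries lay below both controls, at low counts, and the mean was 5.43-fold lower (log2 difference -2.27 ± 0.35 SE, limma adjusted p = 0.0113). It reached the filter of 10 counts only in DMSO, so that a tested HOXA13 had to be lower with MS177, and these values are a description. HOXC13 held 716 and 687 counts in DMSO and 220 and 204 with MS177, a 3.31-fold fall (-1.72 ± 0.13, limma adjusted p = 0.00221). The 2 groups did not overlap and their replicates lay close together. Of all genes, 64.9% had groups that did not overlap in this comparison.

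HOXB8 held 403.4 counts in each DMSO library and 132 and 154 with MS177, 2.82-fold lower (-1.495 ± 0.15, limma adjusted p = 0.00459). HOXC11, from the posterior part of HOXC, went from 504 and 484 to 198 and 167, 2.71-fold lower (-1.44 ± 0.15, limma adjusted p = 0.00495). In both genes each treated library lay below each control. The other 10 members that fell had log2 differences between -1.41 (HOXB13) and -0.45 (HOXB4). They included HOXB13, from 549.1 and 487 to 180 and 207, HOXC10, from 1748 and 1489 to 670.2 and 599, and HOXB6, from 3368 and 2911 to 1266 and 1564. HOXC9, HOXC8, HOXB3, HOXB5, HOXA9 and HOXC6 made up the rest. HOXA9, whose promoter is printed above, went from 1131 and 1107 to 685 and 831, 1.48-fold lower (limma adjusted p = 0.0421).

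The 2 rises in BT-549 were HOXB genes. HOXB9, a posterior gene studied in breast cancer cells, held 28.5 and 29.1 normalized counts in DMSO and 63.6 and 64.9 with MS177. The groups did not overlap and the mean was 2.23-fold higher (1.13 ± 0.23, limma adjusted p = 0.0237). HOXB2 held 2260 and 2029 counts in DMSO and 2810 and 3205 with MS177, 1.40-fold higher (0.49 ± 0.13, limma adjusted p = 0.0490). With 1 of the 4 libraries left out, 11 to 14 members passed, where 18.3% to 29% of all genes did. The calls of HOXB2, HOXA9, HOXB4 and HOXC6 were lost in at least 3 of these 4 fits, and HOXA13 fell under the filter without either DMSO library.

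By position, 7 of 12 tested genes of numbers 9 to 13 fell in BT-549, 6 of 11 of numbers 4 to 8, and 1 of 3 of numbers 1 to 3. Of all tested genes 12.6% fell. The 7 include HOXA13, which passed the filter only through DMSO and so could only be lower. The other 10 tested members did not pass. HOXB7 held 1753 and 1247 counts in DMSO and 851 and 1353 with MS177, so that its groups overlapped (limma adjusted p = 0.273). HOXA10 held 131 and 103 against 128 and 138 (0.510). Others were HOXA4, HOXA7, HOXA11, HOXC4, HOXC12, HOXD4 and HOXD13, with log2 differences from -1.20 to 0.36. HOXC5 and HOXD9, listed but under the filter, were not tested.

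In T47D-TR, MS177 lowered HOXC genes and raised HOXB9. Of 16 tested members, 7 fell and 1 rose. That is 50% called, where 54.6% of all genes were called, so the number of calls itself says nothing of HOX genes. By direction, 43.8% of HOX members fell and 6.25% rose, against 26.9% and 27.6% of all genes. The falls comprised 6 of 8 HOXC members and HOXB6. The HOXC sum went from 4485 and 4673 to 2954 and 2900 normalized counts, 1.56-fold lower, while the HOXB sum stood at 1582 and 1400 against 1514 and 1550.

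HOXC4, the most anterior HOXC gene, whose promoter is printed above, held 172 and 223 normalized counts in DMSO and 35.2 and 37.3 with MS177. Both treated libraries lay far below both controls, and the mean was 5.45-fold lower (-2.40 ± 0.24, limma adjusted p = 0.000397). HOXC6 went from 108 and 140 to 34.7 and 58.7, 2.66-fold lower (-1.43 ± 0.32, limma adjusted p = 0.00966). HOXB6 went from 101 and 99.8 to 61.2 and 44.7 (-0.93 ± 0.26, 0.0212) and HOXC9 from 130 and 123 to 66.4 and 83.4 (-0.76 ± 0.22, 0.0273), both with limma and without overlap between groups. Of all genes, 78.4% did not overlap in this comparison, so the lack of overlap says nothing of these genes.

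HOXC10, HOXC11 and HOXC13, the abundant posterior HOXC genes, also fell. HOXC10 went from 2102 and 2319 to 1379 and 1285, 1.66-fold lower (-0.73 ± 0.11, limma adjusted p = 0.00216). HOXC11 went from 426 and 419 to 292 and 323 (-0.46 ± 0.14, 0.0315), and HOXC13 from 1512 and 1406 to 1114 and 1089.9 (-0.40 ± 0.11, 0.0202), 1.38- and 1.32-fold. HOXB9 rose: its DMSO libraries held 21.8 and 25.6 counts and its MS177 libraries 76.3 and 107, 3.87-fold higher (1.89 ± 0.30, limma adjusted p = 0.00241). All 4 genes had groups that did not overlap, as 78.4% of all genes had.

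HOXB7 held 42.5 and 41.5 counts in DMSO and 62.1 and 84.0 with MS177, just short of the threshold (limma adjusted p = 0.0516), as was HOXC8 (log2 -1.16, 0.0532). HOXB2 held 1191 and 1004 against 1122 and 1143 and its groups overlapped (0.758). With 1 of the 4 libraries left out, 4 or 5 of the members passed where 40.8% to 49.9% of all genes did, HOXB9, HOXC4 and HOXC10 in each of these fits. HOXB6, HOXC6, HOXC9, HOXC11 and HOXC13 were lost in at least 1. HOXA6, HOXB4 and HOXB8 were listed but fell under the filter.

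In T47D, 24 members were listed and 22 tested, and no HOX gene passed against DMSO: 0 with limma, 0 with voom on the recovered reads, and 4 at an unadjusted p under 0.05, where 0% of all genes passed. The 2 MS177 libraries disagreed for part of the list. HOXB7 held 111 and 119 counts in DMSO and 591 and 88.5 with MS177, and HOXC9 258 and 231 against 737 and 208. In both genes replicate 1 was above and replicate 2 below the controls. With MS177 replicate 1 or replicate 2 left out, 10 members passed in each fit, where 50.7% of all genes passed without replicate 1 and 71.2% without replicate 2, so these counts are no result about HOX genes. HOXB9 and HOXC13 were higher and HOXC4, HOXC5, HOXC6 and HOXC10 lower in both, while HOXC8 was called lower (-1.30) with replicate 2 alone and higher (0.66) with replicate 1 alone. HOXC5 passed the filter only through the DMSO libraries.

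HOXB9 was high in both. It held 16.7 and 29.6 counts in DMSO and 193 and 129 with MS177, 6.95-fold higher (2.77 ± 0.47, limma adjusted p = 0.132). HOXC10 held 4502 and 4698 against 2532 and 2842, 1.71-fold lower (-0.78 ± 0.26, 0.238), and HOXC6 226 and 226 against 116 and 121 (-0.93 ± 0.29, 0.226). HOXC13 went the other way, with 1591 and 1410 against 2356 and 2075 (0.56 ± 0.26, 0.341). None of these 4 overlapped between groups, nor did 55.7% of all genes. In a fit over all libraries of the line, HOXB9, HOXC10, HOXC6, HOXC4 and HOXC5 passed, with limma adjusted p of 0.00840, 0.0156, 0.0198, 0.0388 and 0.0440. All genes passed that fit at a share of 18.2%.

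**Figure D2:**
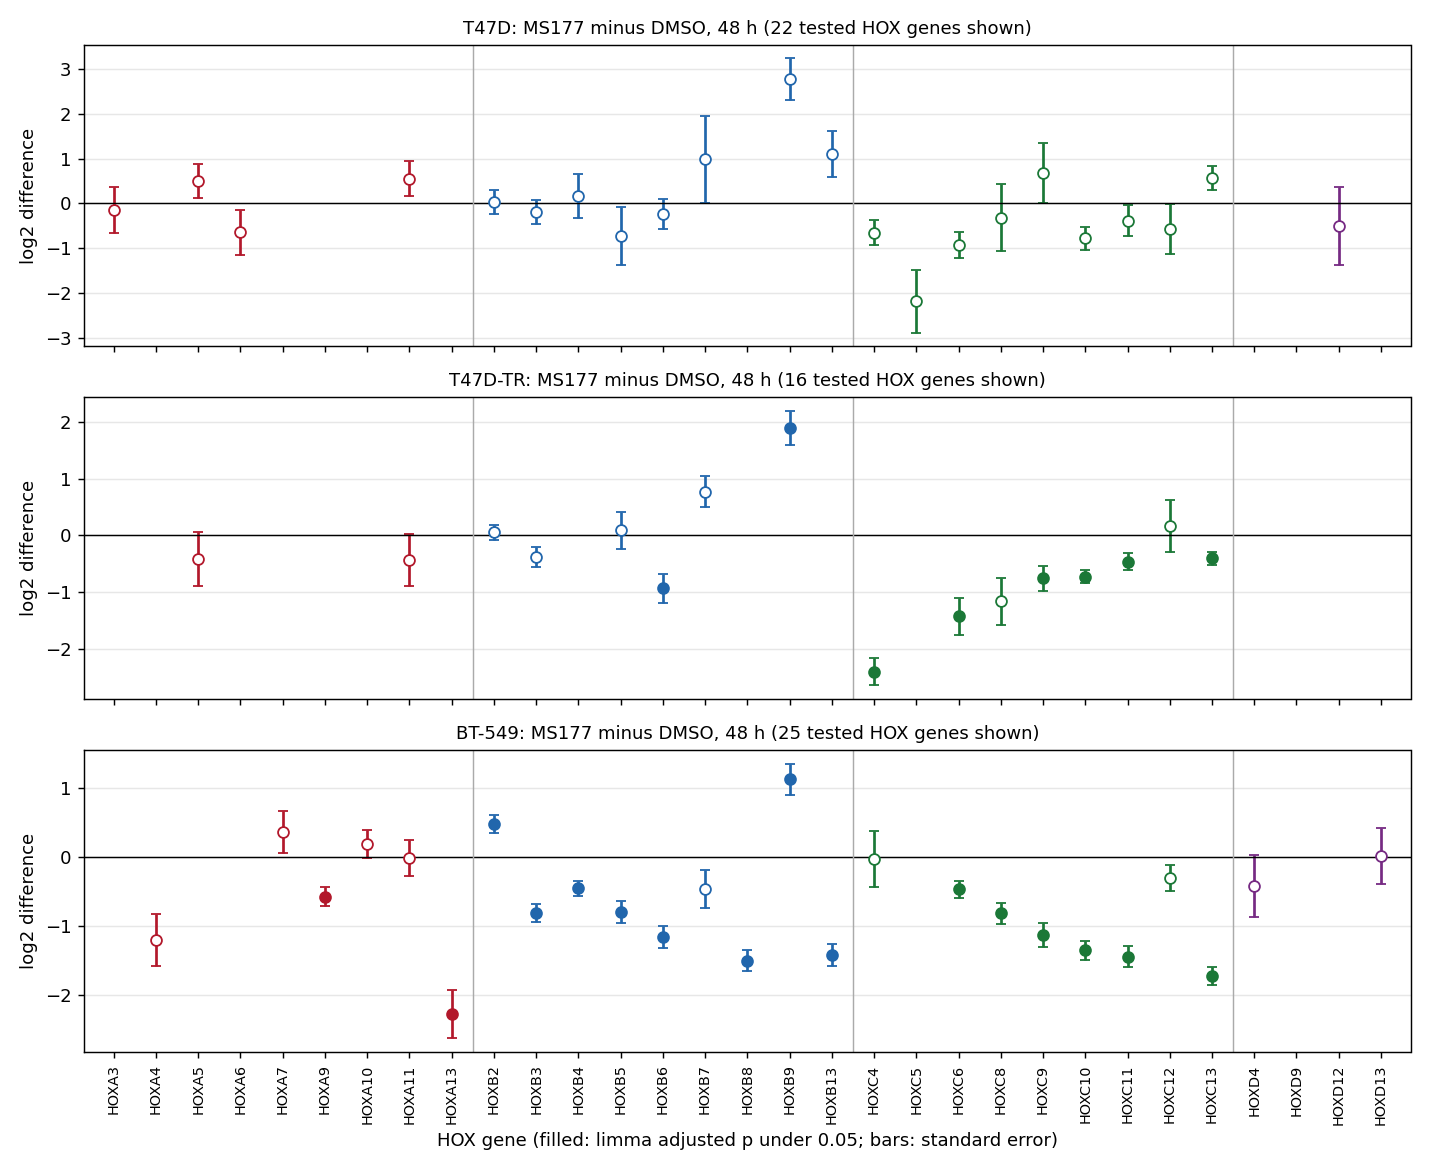
Log2 difference of MS177 minus DMSO (vertical axis, limma, bars are standard errors) for tested HOX genes (horizontal axis, 1 HOXA gene not shown) in T47D, T47D-TR and BT-549, filled where the adjusted p is under 0.05. HOXB9 lies above 0 in each panel, most HOXC genes lie below 0 in T47D-TR and BT-549, and no point is filled in T47D.

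**Figure D3:**
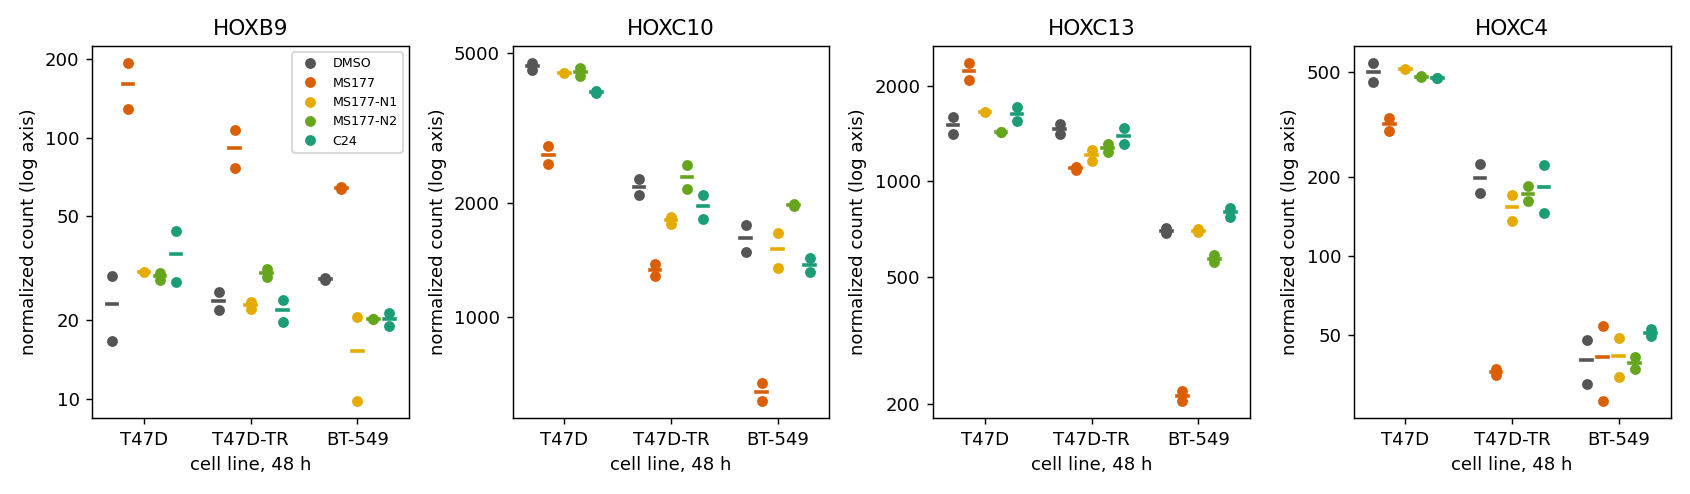
Normalized counts (log axis) of single libraries at 48 h for HOX genes named in the text, by line and compound, with 1 point per library. HOXB9 is higher in the MS177 libraries than in the DMSO libraries of each line, and HOXC13 with MS177 is lower in T47D-TR and BT-549 and higher in T47D.

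The negative controls and the inhibitor were compared with DMSO to ask whether they change the same genes. Of these 9 comparisons at 48 h, 1 called a HOX gene. MS177-N1 raised HOXB6 in T47D-TR, from 89.5 and 87.5 to 138 and 176.8 counts (0.81 ± 0.24, limma adjusted p = 0.0442), as 1 of 16 members where 17.3% of all genes passed. That call was lost in 3 of the 4 fits that left out 1 library. MS177 changed HOXB6 in the opposite direction there.

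Elsewhere limma called 0 members. In T47D, MS177-N1 passed for 0 of 22 (0.0651% of all genes, 0 members at an unadjusted p under 0.05), MS177-N2 for 0 of 22 (0%, 3) and C24 for 0 of 23 (0.574%, 4). In T47D-TR, MS177-N2 and C24 each passed for 0 of 17 (0.111% and 0.014%, 0 at an unadjusted p). In BT-549, MS177-N1 passed for 0 of 27 (0%, 0), MS177-N2 for 0 of 26 (2.12%, 2) and C24 for 0 of 27 (0.165%, 4). With voom on recovered reads the T47D and BT-549 counts were also 0. The medians of the HOX members lay between -0.16 and 0.16.

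For HOXC13 in BT-549, which MS177 lowered 3.31-fold, the difference from DMSO was 0.19 with C24 (95% interval -0.12 to 0.50) and 0.00 with MS177-N1 (-0.31 to 0.31). For HOXC10 it was -0.23 with C24 (-0.55 to 0.09) and 0.29 with MS177-N2 (-0.02 to 0.61). Both intervals of C24 lie above the MS177 values of these genes. For HOXC4 in T47D-TR, C24 gave -0.13 (-0.82 to 0.57).

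**Figure D4:**
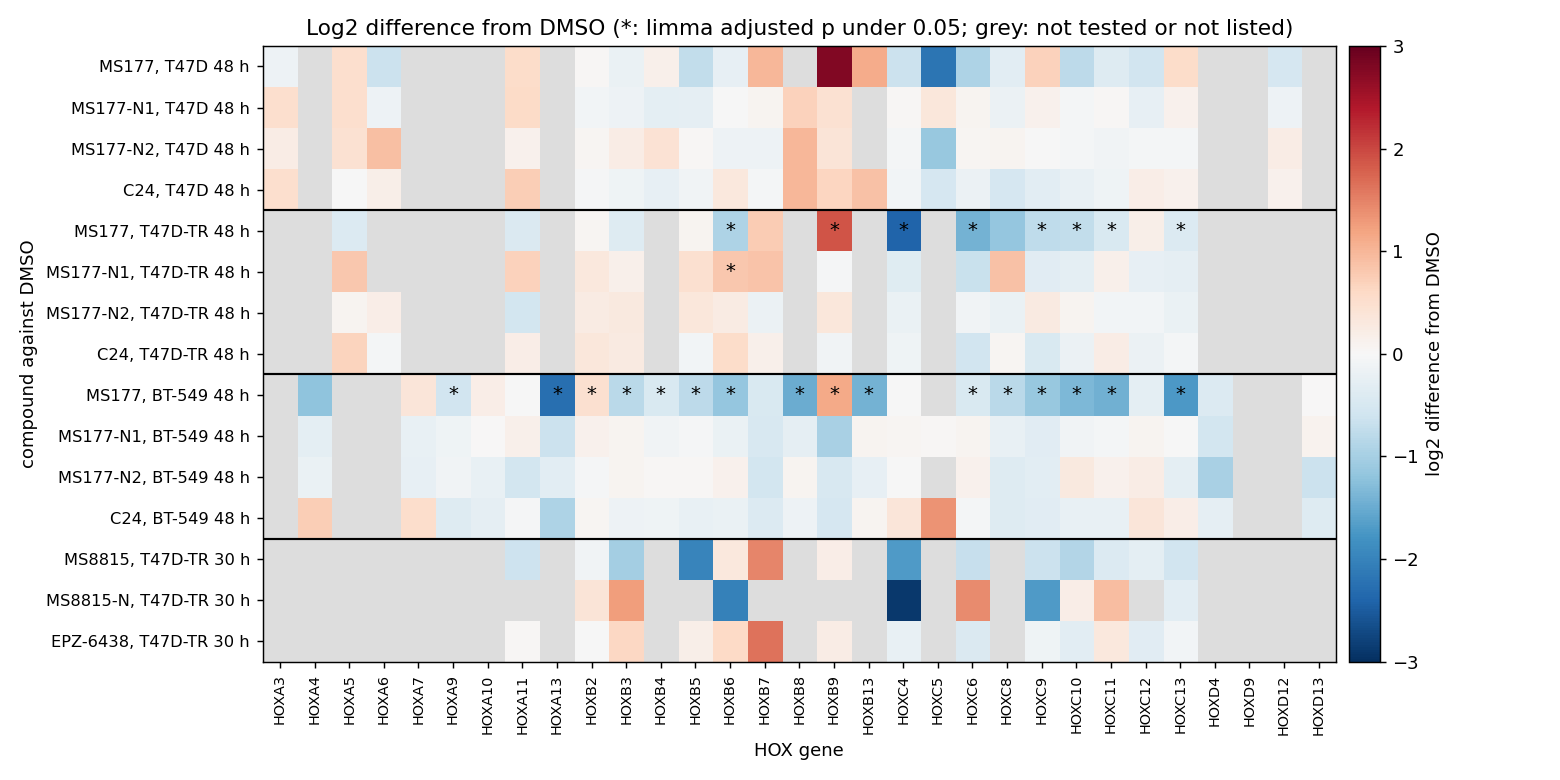
Log2 difference from DMSO (colour) of HOX genes (horizontal axis, 1 HOXA gene not shown) for all 15 comparisons of a compound with DMSO (vertical axis), with a star where the limma adjusted p is under 0.05 and grey where the gene was not tested or not listed. Stars stand in the MS177 rows of T47D-TR and BT-549 and at HOXB6 with MS177-N1 in T47D-TR.

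MS177 was then set directly against each of the other compounds, at the same dose and time, in a fit over the libraries of a line. HOXB9 was higher with MS177 in all 9 of these comparisons. The log2 differences from MS177-N1, MS177-N2 and C24 were 2.32 ± 0.48, 2.38 ± 0.39 and 2.14 ± 0.39 in T47D (limma adjusted p 0.0399, 0.0137 and 0.0173), 1.94, 1.54 and 2.01, each ± 0.29, in T47D-TR (0.000580, 0.00232 and 0.000496), and 2.09, 1.62 and 1.62, each ± 0.34, in BT-549 (0.00173, 0.00571 and 0.00555). The MS177-N1 side in T47D is 1 library.

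In BT-549 MS177 differed from MS177-N1, MS177-N2 and C24 at 15, 18 and 18 of 27 members (33.1%, 37.2% and 35.7% of all genes), of which 14, 16 and 16 were lower (17.7%, 19.4% and 18.9% of all genes). Among members lower with MS177, HOXA13, HOXC13, HOXB13 and HOXC11 had the largest differences from MS177-N1, at -1.62, -1.72, -1.49 and -1.38. Against MS177-N2 these were HOXA13 (-1.94), HOXC10 (-1.64), HOXB8 (-1.57) and HOXC11 (-1.56). Against C24, the low-count genes HOXC5 (-2.18) and HOXA4 (-1.93) came first, then HOXC13 (-1.91) and HOXB13 (-1.49). HOXA13, HOXC5 and HOXA4 did not reach the filter of 10 counts through the MS177 libraries. Those libraries held 6.54 and 6.78, 6.54 and 3.87, and 7.48 and 7.74 counts of them in turn. The differences of these genes are a description, and the numbers of lower members include them where they passed. HOXB2 was higher with MS177 than with MS177-N2 (0.52 ± 0.12, limma adjusted p = 0.0101) and C24 (0.42 ± 0.12, 0.0269).

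In T47D-TR the same 3 comparisons called 7, 9 and 8 of 17 members, shares near those of all genes (50.7%, 46.3% and 48.1%). Of these, 6, 7 and 7 were lower with MS177, where 26.8%, 24.5% and 25.7% of all genes were. HOXC4 differed by -2.04, -2.21 and -2.28 (each ± 0.25, limma adjusted p 0.000188, 0.000133 and 0.000105), HOXB6 by -1.74, -1.17 and -1.48, and HOXC10 by -0.44, -0.82 and -0.55. HOXC11 was lower than with MS177-N1 (-0.62) and C24 (-0.69). Against MS177-N1, HOXC8 (-2.04) and HOXA11 (-1.13) were also lower. HOXA11 did not reach the filter of 10 counts through the MS177 libraries, so its difference is a description. Against MS177-N2, HOXC6 (-1.32) and HOXC9 (-1.03) were, and against C24, HOXC13 (-0.34). HOXA6 and HOXB3 were lower than with MS177-N2 (-2.11 and -0.68) and C24 (-1.85 and -0.65), HOXA6 at 3.86 and 1.36 counts with MS177 and so under 10 counts there. HOXB7 was higher than with MS177-N2 (0.94 ± 0.30, 0.0280). Whether these 3 compounds differ from one another was not tested.

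In T47D they called 2, 5 and 3 of 22 members (8.56%, 16.7% and 19.3% of all genes). HOXC6, which is expressed in the developing mammary gland, was lower with MS177 in each, by -1.02, -0.97 and -0.74 (limma adjusted p 0.0421, 0.0180 and 0.0354). HOXC10 was lower than with MS177-N2 (-0.73 ± 0.14, 0.0202) and C24 (-0.55 ± 0.14, 0.0387), and differed by -0.72 from MS177-N1 (95% interval -1.13 to -0.31, 0.0534). HOXC13 was higher (0.63 ± 0.15, 0.0400) and HOXA6 lower (-1.54 ± 0.38, 0.0421) than with MS177-N2. HOXA6 held 7.03 and 10.05 counts with MS177, so it did not reach the filter of 10 counts through these libraries. Its difference is a description, and the 5 members called against MS177-N2 include it. None of the T47D calls was made when only the libraries of the compared groups were fitted.

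The MS177 response was compared between lines by an interaction term in limma, as a difference of the log2 changes. T47D-TR against BT-549 differed at 5 of 17 members, where 30.5% of all genes did, so the count is near the background. HOXC4 fell in T47D-TR and stood at 32.7 and 47.8 counts in DMSO and 28.0 and 54.2 with MS177 in BT-549, a difference of -2.38 ± 0.51 (adjusted p = 0.0114). HOXC13 (1.32 ± 0.16, 0.000963), HOXC11 (0.98 ± 0.20, 0.0100) and HOXC10 (0.62 ± 0.18, 0.0354) fell further in BT-549 than in T47D-TR. T47D against BT-549 differed at 2 of 20 members (1.53%): HOXC13 (2.28 ± 0.23, 0.0230) and HOXB13 (2.53 ± 0.36, 0.0342), the latter at 5.85 and 5.10 counts in DMSO and 12.9 and 13.1 with MS177 in T47D. In T47D HOXB13 reached 10 counts only in the MS177 libraries, and it passed the filter of this fit through BT-549 as well, where it fell. T47D-TR against T47D differed at 0 of 18 (0.0289%), with 2 at an unadjusted p under 0.05. For HOXB9 the responses differed by 0.76 between T47D-TR and BT-549 (95% interval -0.13 to 1.65, 0.174), so that a difference in its rise was not shown.

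At 30 h in T47D-TR, no HOX gene passed with MS8815, MS8815-N or EPZ-6438. With MS8815 it was 0 of 14 members with limma and 4 at an unadjusted p, where 5.19% of all genes passed (3.01% higher, 2.18% lower). The median of the 14 was -0.59, with 11 below 0. The HOXC sum held 2551 and 2388 counts in DMSO and 1637 and 1318 with MS8815, 1.67-fold lower.

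HOXC10 held 1307 and 1205 counts in DMSO and 772 and 603 with MS8815 (-0.88 ± 0.23, limma adjusted p = 0.0881). HOXC4 held 125 and 145 against 58.8 and 28.8 (-1.69 ± 0.43, 0.0877), and HOXB5, a central HOXB gene, 25.6 and 19.1 against 4.78 and 4.92 (-1.98 ± 0.52, 0.0895). In these 3 genes both treated libraries were below both controls, but 61.8% of all genes did not overlap in this comparison, and HOXB5 passed the filter only through DMSO. HOXB9 held 15.5 and 15.1 against 19.2 and 16.4 (0.20 ± 0.44, 0.793). HOXB7 held 19.5 and 18.5 against 116 and 24.5, with the 2 treated libraries far apart. Without MS8815 replicate 1 or 2, 6 and 7 members passed, where 44.9% and 56.5% of all genes did.

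With MS8815-N 0 of 9 members passed (0% of all genes, 0 at an unadjusted p), and its second library, the one with 44.3% of genes at 0, listed 9 of 16 HOX genes at 0. With EPZ-6438 it was 0 of 14 (0%, 0). HOXC10 held 1487 and 1376 counts in DMSO and 1280 and 1019.5 with EPZ-6438 (-0.32, 95% interval -0.88 to 0.23). HOXB7 held 19.4 and 18.5 against 26.6 and 136, and again 1 of the pair of treated libraries was high.

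Directly compared, MS8815 and MS8815-N differed at 0 of 15 members (0.0574% of all genes, 2 at an unadjusted p) and MS8815 and EPZ-6438 at 0 of 15 (0.108%, 0). For HOXC10 the difference was -1.09 from MS8815-N (95% interval -1.90 to -0.27, limma adjusted p = 0.281) and -0.55 from EPZ-6438 (-1.37 to 0.26, 0.871). For HOXC13 it was -0.25 (-0.98 to 0.48) and -0.48 (-1.21 to 0.25). Over all genes the median difference was 0.52 from MS8815-N, whose pair holds the library with 44.3% of genes at 0, and -0.01 from EPZ-6438. Intervals of this width do not show that the compounds act alike. MS177 and MS8815 were given for different times and were not compared.

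**Figure D5:**
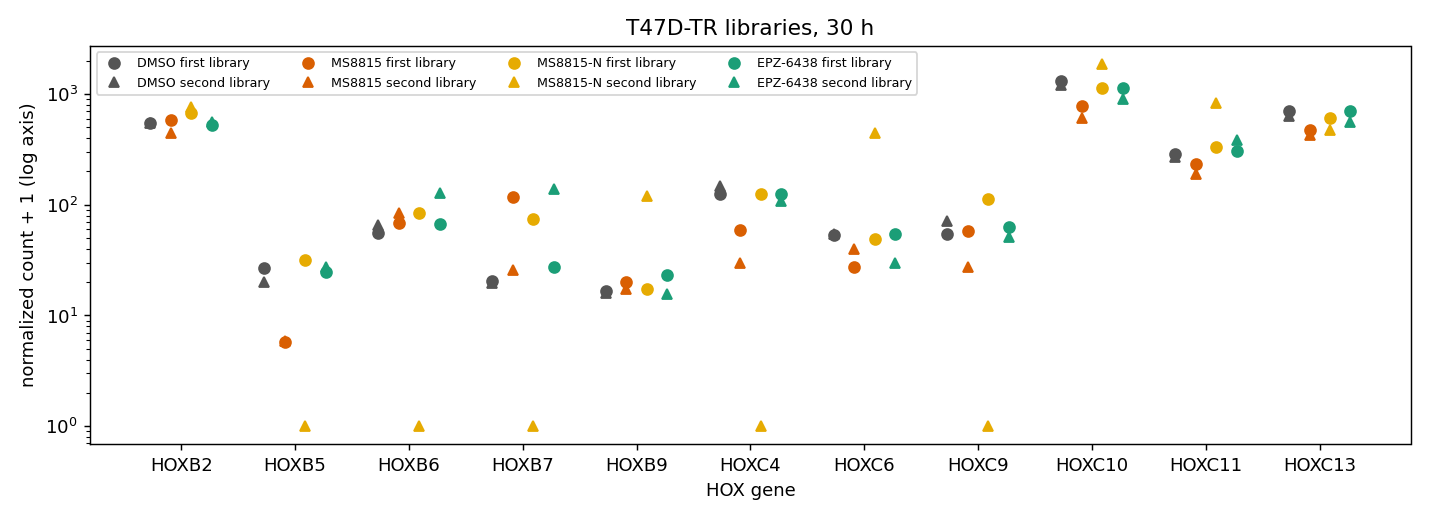
Normalized count + 1 (log axis) of single T47D-TR libraries at 30 h for HOX genes (horizontal axis), by compound, with 1 point per library. HOXC10 and HOXC4 are lower in both MS8815 libraries than in DMSO, HOXB7 is high in 1 MS8815 and 1 EPZ-6438 library, and 1 MS8815-N library has genes at 0.

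Genes that work with or on the HOX clusters were described by lists, as counts of members that rose or fell with MS177. These counts are to be read beside the shares of all genes. In T47D-TR 27.6% of all genes rose and 26.9% fell with MS177, and in BT-549 11.5% rose and 12.6% fell. With MS8815 at 30 h 3.01% rose and 2.18% fell. Of the HOX cofactors (PBX, MEIS and PREP genes, 8 tested), 5 fell and 0 rose in BT-549 (median log2 -0.74), and 3 fell and 1 rose in T47D-TR (-0.49). PBX3, which binds DNA beside HOX proteins, went from 1896 ± 20.9 (SD, n = 2) to 705 ± 42.3 counts in BT-549, 2.69-fold, and from 472 ± 4.37 to 333 ± 6.74 in T47D-TR, 1.42-fold (limma adjusted p 0.00269 and 0.0185). MEIS2 fell 1.76-fold in BT-549, and MEIS3 rose 9.59-fold from a mean of 5.53 counts in T47D-TR, where it passed the filter only through the MS177 libraries.

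Of the PRC2 subunits, 6 of 12 fell and 3 rose in T47D-TR (median log2 -0.34) and 0 of 13 changed in BT-549 (-0.02). EED, which reads the histone mark, fell from 98.2 to 51.8 counts (limma adjusted p = 0.0249) and SUZ12, a scaffold of the complex, from 1793 to 1204 (0.00438) in T47D-TR. In BT-549 they held 1784 against 1347 (0.111) and 5179 against 5107 (0.931), and in T47D 1681 against 909.6 (0.223) and 4198 against 3147 (0.451). PHF1, an accessory subunit, rose 4.92-fold in T47D-TR, and the histone-binding RBBP7 and RBBP4 fell 2.62- and 2.54-fold.

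Of 22 PRC1 subunits, 8 rose and 6 fell in T47D-TR (0.18) and 1 rose and 2 fell in BT-549 (0.10). The T47D-TR counts were near the shares of all genes. CBX2 and CBX8, which bind the histone mark, fell 2.58- and 2.88-fold in BT-549 and PHC2 rose 1.79-fold. RYBP and RING1 rose 2.29- and 2.42-fold in T47D-TR. At 30 h with MS8815, 2 of 22 fell, PCGF2 by 2.61-fold and BCOR by 2.53-fold.

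Of the MLL complex genes and other HOX activators, 6 of 18 fell and 1 rose in T47D-TR (-0.15), with WDR5, MEN1 and PSIP1 1.83-, 1.66- and 1.60-fold lower, and 1 of 18 fell in BT-549 (-0.01). That gene was MLLT3, a partner of MLL in leukemia, which fell from 159 ± 6.93 to 17.6 ± 1.58 counts, 9.03-fold (limma adjusted p = 0.00193). Retinoic acid induces HOX genes from the anterior end. Of its pathway genes 7 of 11 fell and 1 rose in BT-549 (-0.89) and 4 of 12 fell and 2 rose in T47D-TR (0.30). RDH10, which makes retinal, fell 3.24-fold and RXRA 2.78-fold in BT-549, and ALDH1A3, which makes retinoic acid, rose 1.98-fold in BT-549 and fell 5.77-fold in T47D-TR. ALDH1A1 fell 4.07-fold and the receptor RARG rose 1.82-fold in T47D-TR.

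Of the HOX antisense and long noncoding RNAs, 3 of 9 fell and 0 rose in BT-549 (-0.65) and 2 of 5 rose and 1 fell in T47D-TR (-0.03). HOTAIR, which is transcribed from HOXC against the direction of its coding genes, fell in both, from 424 ± 23.9 to 132 ± 2.78 counts in BT-549 (3.22-fold, limma adjusted p = 0.00295) and from 209 ± 26.4 to 61.1 ± 12.99 in T47D-TR (3.43-fold, 0.00128). HOXC-AS3 fell 2.46-fold in BT-549 and rose 3.44-fold in T47D-TR, and HOXC13-AS rose 4.16-fold in T47D-TR. HOXC-AS2 fell 2.14-fold in BT-549. The library kit named in the labels does not mark strand, so reads of HOXC13 and HOXC13-AS, HOXC10 and HOXC-AS3, HOXC6 or HOXC9 and HOXC-AS2, and HOXB3, HOXB5 or HOXB6 and HOXB-AS3 cannot be told apart where they overlap. The same holds for HOXA13 and HOTTIP, HOXA9 or HOXA10 and HOXA10-AS, HOXA11 and HOXA11-AS, and HOXB2 or HOXB3 and HOXB-AS1. HOXC4, HOXC5, HOXC6 and HOXC9 share exons on 1 strand, as do HOXB3, HOXB4 and HOXB6, and how reads were divided among them is uncertain.

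Markers of cell type were counted in the same way. In T47D-TR 7 of 12 luminal markers fell and 3 rose (median log2 -0.60), 3 of 6 tested basal and mesenchymal markers rose and 1 fell (0.57), and 1 immune marker was tested and fell. Summed, the luminal markers held 22051 and 19638 CPM in DMSO and 19447 and 19560.2 with MS177, and the basal and mesenchymal markers 36.8 and 37.4 against 58.1 and 53.7. In BT-549 2 of 7 luminal markers rose and 2 fell (0.08), and 5 of 12 basal and mesenchymal markers fell (-0.15), with sums of 773 and 739 CPM against 986 and 1089 for the luminal list and 4099 and 4301 against 3413 and 2936 for the basal and mesenchymal list. In T47D no gene of any list passed. At 30 h with MS8815, 1 of 12 luminal markers fell (sums of 25397 and 24263 CPM against 11257 and 13610.3), 1 of 4 basal and mesenchymal markers rose, and 0 genes of the cofactor, PRC2, MLL, retinoic acid, antisense and immune lists passed. In the first MS8815 library, HSP90AA1 made up 12.4% of the counts, where the top gene of the DMSO libraries made up 1.52% and 1.46%. The normalized total of that library was above those of DMSO, so its CPM are lower against DMSO than its normalized counts are. Immune and endothelial markers summed to at most 3.73 CPM in any of these libraries. No listed marker was at 0 in all libraries of its table. The part of these markers in the HOX results was not tested.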

How the data were processed

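RNA sequencing values of 38 samples in 15 tables, 1 per compound, line and time, were used. Per the submitters' processing notes, RSEM and DESeq were used with the hg38 genome. The values the authors deposited are on a log2 scale and were taken as DESeq's variance-stabilizing transform. Undoing it gave normalized counts. In T47D and BT-549 these came out as whole reads (100% of values, within 0.05), in T47D-TR for only 10.0% to 26.1%, so that the scale there is an assumption and the depth unknown. The lowest value of a table lay between 3.45 and 9.28, and 1 unit above it meant 5.48 to 310.1 normalized counts, which is why log2(normalized count + 1) was tested and not the deposited values.

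Genes that reached 10 normalized counts in 2 or more libraries were tested with limma 3.58.1 (R 4.3.3, mean trend, robust), two-sided, with Benjamini-Hochberg adjustment over all tested genes and a threshold of 0.05. There were 15 comparisons with DMSO within tables, 11 between compounds over tables joined through the shared DMSO libraries, and 3 of the MS177 response between lines. The scripts were tested on simulated data. The T47D MS177-N1 comparison used 3 libraries and assumed that its lone library varied like DMSO.

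The HOX members and the gene lists were chosen with earlier results of these data known. Named with values were the highest member per line and cluster in DMSO, members past the threshold (the 4 largest rises and falls where over 8 passed), EZH2, EED and SUZ12, and up to 3 genes per list. HOX genes singled out beyond that were chosen after their values were seen. Alternatives were voom on recovered reads, deposited log2 values, quantile scaling, another pseudocount (4), no filter, other sets of libraries, a replicate block, and leaving out each library. Results of some genes are not reported here.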

Additional observations from a re-analysis of the deposited data

Results flagged for a closer look

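The change with MS177 differed between lines for 7 pairs of a HOX gene and a line comparison, by a limma interaction term adjusted over all genes. Values are the log2 change in the first line less that in BT-549. For T47D-TR they were 1.32 for HOXC13 (adjusted p = 0.000963), 0.98 for HOXC11 (0.0100), 0.62 for HOXC10 (0.0354), 1.23 for HOXB7 (0.0461) and -2.38 for HOXC4 (0.0114). HOXC13, HOXC11 and HOXC10 fell in both lines by the test against DMSO, HOXC4 in T47D-TR. HOXB7 passed in neither line, with log2 changes of 0.77 in T47D-TR and -0.46 in BT-549. HOXC4 shares exons with other HOXC genes, and HOXC13 overlaps an antisense gene that rose in T47D-TR.

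For T47D they were 2.28 for HOXC13 (0.0230) and 2.53 for HOXB13 (0.0342). HOXB13 is at 13.1 normalized counts or fewer in every T47D library compared and reached 10 there only in the MS177 libraries, and the T47D MS177 libraries are the pair that stood apart.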

How the results depend on the processing

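No named HOX gene of the 117 called results reversed under any alternative. With 1 library left out 338 values kept their call and 152 lost it. With the replicate number as a block, 87 kept it and 28 lost it. The numbers do not mark shared cultures in the labels and same-numbered libraries correlated between -0.35 and 0.38, so the block is given here only. It changed the number of HOX calls with MS177 against DMSO in T47D from 0 to 1, with MS177-N1 against DMSO from 1 to 0 in T47D-TR and from 0 to 3 in BT-549, for MS177 against MS177-N2 and C24 in T47D from 5 to 2 and from 3 to 1, and for the response difference from BT-549 from 5 to 2 in T47D-TR and from 2 to 0 in T47D. Of all genes, 5.33%, 13.1% and 17% passed with the block in these 3 comparisons with DMSO, in place of 0%, 17.3% and 0%. No paired analysis was possible for the 30 h comparisons with DMSO and for MS177-N1 in T47D because the groups share fewer than 2 replicate numbers.

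Fitting all libraries of a line gave 5 calls in place of 0 for MS177 in T47D and 0 in place of 1 for MS177-N1 in T47D-TR, where no filter also gave 0. Fitting only the compared libraries gave 0 calls in T47D in place of the 2, 5 and 3 of MS177 against MS177-N1, MS177-N2 and C24, and 5 in place of 8 against C24 in T47D-TR. Of all HOX calls between compounds, that fit kept 59 and lost 26, further ones outside T47D included. On the deposited log2 values it was 5 in place of 3 against C24 in T47D and 5 in place of 9 against MS177-N2 in T47D-TR. With 1 joining factor per table in T47D-TR, 20 HOX calls between compounds were kept and 4 lost. The cause of these changes was not tested.

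Leaving out 1 library moved the count to 0 to 10 with MS177, and 0 to 1 with C24, against DMSO in T47D; to 4 to 5 with MS177 and 0 to 2 with MS177-N1 in T47D-TR; and to 0 to 1 with MS177-N2 and with C24 in BT-549. With MS8815, MS8815-N and EPZ-6438 it gave 0 to 7, 0 to 9 and 0 to 5. For MS177 against MS177-N1, MS177-N2 and C24 in turn, T47D gave 9 to 11, 0 to 12 and 0 to 12, T47D-TR 3 to 6, 4 to 6 and 5 to 8, and BT-549 11 to 15 against C24. For MS8815 against MS8815-N it gave 0 to 11. The response differences gave 3 to 5 for T47D-TR and 0 to 11 for T47D against BT-549, and 0 to 5 for T47D-TR against T47D. Where 1 library was left out of a group of 2, the other was assumed to vary like the remaining groups. In the comparisons with DMSO the share of all genes called also moved with the library left out. The counts of these fits show how far calls rest on single libraries and are no result about HOX genes. Genes on in DMSO at 0.5 or 2 CPM in place of 1 numbered 16 or 11 in T47D, 17 or 11 in T47D-TR at 48 h, 15 or 11 at 30 h and 21 or 17 in BT-549. With 2 libraries a group, most calls of small changes rest on each library, and the depth of T47D-TR is unknown.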
